A study of Danio rerio with 6 samples.

Results

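The genes described here encode the proteins of the cytosolic ribosome. They were found by symbol, as all names starting with rps or rpl followed by a number, a P0 to P2 designation or an a, without the rps6k kinases, and were kept where they had at least 100 UMIs (unique molecular identifiers, 1 per captured RNA molecule) over the cells used. Of 25109 genes in the files, 83 matched the pattern and 82 were kept. The one left out was rps8b, with 44 UMIs, and the member just above the limit was the lower of the 2 gene entries with the symbol rpl37, called rpl37_1 here, with 605 UMIs. The symbol pattern also takes in rps19bp1, which encodes a binding partner of the ribosomal protein S19, and rpl7l1, a relative of rpl7 whose yeast counterpart is an assembly factor of the large subunit.

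Cells came from the eyes of zebrafish (Danio rerio) F1 embryos of the genotype NRE-eGFP/HS5-mCherry at 48 hpf (hours post fertilisation), in which 2 human PAX6 enhancers, NRE and HS5, drive eGFP and mCherry. Both sorts came from the same kind of embryo, carrying both reporters and treated with PTU to prevent pigmentation, and each sample pooled the eyes of many embryos. Cells were enriched by FACS for mCherry in 3 libraries and for eGFP in 3 libraries, and RNA was captured with the 10x Genomics 3′ assay. By the study's account of its sorting rounds, the first round collected cells positive for both reporters in place of all mCherry-positive cells. If the replicate number is the round, that is mCherry-enriched replicate 1.

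A ribosome has a small subunit, which reads the mRNA, and a large subunit, which joins the amino acids and carries the flexible stalk that recruits translation factors. One copy of nearly every ribosomal protein is built into each ribosome, so their genes are transcribed and translated in a coordinated way, and growing cells, which build many ribosomes, are rich in their mRNAs. Zebrafish keep a pair of genes for several of these proteins after ancestral genome duplication.

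Barcodes with at least 1000 genes and at most 10% mitochondrial UMIs were kept, which left 5606 cells, between 85 and 2303 in a library. Over all barcodes, kept or not, the library totals were 14307132 to 86803928 UMIs. The kept cells held fewer. Their total was smallest for eGFP-enriched replicate 2, at 599190 UMIs. It was largest, at 43521749 UMIs, for eGFP-enriched replicate 1. Only 4 barcodes occurred in more than 1 library. Cells were assigned to classes by markers of retinal and neighbouring tissues, which placed 3243 cells, and 319 cells lay near the limit on the lead over the next class. In each class with at least 5 cells in some library, no marker of another class was among its 10 leading genes by fold. Red blood cell-like cells were too few for this check. Since the cells were placed by these same markers, that check is largely fixed by the assignment and gives the names no independent support. A class was tested where at least 4 libraries had 10 of its cells, which held for RGC-like (retinal ganglion), amacrine-like, bipolar-like, PR-like (photoreceptor) and neurogenic progenitor-like cells. After the cell numbers were seen, 4 classes with at least 5 cells in at least 4 libraries were added, namely horizontal-like, Müller glia-like, stem cell-like and pigment cell-like cells. Some of the markers are ones the study itself used to name its cells, so the names are not independent of it.

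Ribosomal protein genes made up a large part of the RNA counted. In the kept cells they held 27.01, 31.3 and 30.4% of UMIs in mCherry-enriched replicates 1 to 3 and 30.1, 30.9 and 30.2% in eGFP-enriched replicates 1 to 3. The mean was 29.5% ± 2.24 (SD, n = 3) in the mCherry-enriched and 30.4% ± 0.395 (SD, n = 3) in the eGFP-enriched libraries, and the ranges overlapped, with mCherry-enriched replicate 1 the lowest of the 6. Barcodes with at most 100 UMIs, which hold RNA that is free in the suspension, had a higher share in every library, between 37.7 and 43.9%. The members with most UMIs were rplp1 of the stalk (749888 UMIs, 3.18% of those of all members), rpl37_2 (535541) and rpl39 (507794) of the large subunit body, rps29 of the small subunit (511517) and rplp2l of the stalk (491554), and the median member held 1.29%. Within a library the share rose with the depth of a cell, with a correlation to log2 UMIs of 0.219 to 0.373 over 85 to 2303 cells, a description of cells that share a library and its free RNA.

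The share differed between cell classes by far more than between the sorts. Stem cell-like cells had the highest share of the 9 classes. It was 32.6% and 38.4% in mCherry-enriched replicates 1 and 3, and 37.1% and 39.0% in eGFP-enriched replicates 1 and 3, against 26.7 to 30.1% in the other kept cells of the same libraries. All 4 values lay above all 4 of the other cells. The mean difference was 7.56 percentage points ± 1.34 (SD, n = 4 libraries). The libraries are both sorts of replicates 1 and 3 alone. Libraries of the same replicate number were taken as paired, so they are not 4 independent samples. No p is given for a share summed over the members. These were also the deepest cells of the 9 classes, with a median of 9449 to 32491.5 UMIs by library. With the mean taken over cells instead of summed UMIs, the difference was 6.21 percentage points ± 0.803 (SD, n = 4). Against other cells of the same library in the same range of depth it was then 5.13 ± 1.08 (SD, n = 4), positive in 4 of 4 libraries.

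Müller glia-like cells, the radial support cells of the retina, stood at the other end of the 9 classes. Their share was 19.2% and 24.1% in mCherry-enriched replicates 1 and 3 and 25.01% and 22.8% in eGFP-enriched replicates 1 and 3, below every value of the other cells. The difference was −6.70 percentage points ± 1.25 (SD, n = 4). With the mean taken over cells it was −5.52 ± 1.74 (SD, n = 4), and −5.29 ± 1.74 (SD, n = 4) with cells matched on depth as well. The class numbered 75 cells in these 4 libraries.

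Differentiating neurons lay between these ends and mostly below the other cells of their libraries. Those other cells include the cells in no class, so the contrast is not with the other named classes alone. The cells in no class had a share above the rest in every library, by 1.17 to 8.93 percentage points. In eGFP-enriched replicate 1 they held 30459480 of 43521749 UMIs. Bipolar-like cells were lower by 3.71 percentage points on average (mean difference −3.71 ± 1.09, SD, n = 5), in 5 of 5 libraries. They were also shallow, with a median of 3127 to 6280.5 UMIs. With the mean taken over cells the difference was −2.96 ± 1.52 (SD, n = 5). With matched depth as well it shrank to −1.31 ± 0.730 (SD, n = 5), still negative in 5 of 5. Neurogenic progenitor-like cells differed by −2.89 ± 1.34 (SD, n = 5) and PR-like cells by −2.33 ± 1.24 (SD, n = 5), both in 5 of 5 libraries. RGC-like cells differed by −2.33 ± 2.41 (SD, n = 5), which is within the spread between libraries, since mCherry-enriched replicate 1 had a difference of 0.150 and eGFP-enriched replicate 3 one of −6.05. With the mean taken over cells it was −2.25 ± 1.80 (SD, n = 5), and −2.45 ± 1.94 (SD, n = 5) with matched depth as well, below the other cells in 5 of 5 libraries both times. Horizontal-like cells differed by −1.50 ± 1.36 (SD, n = 5) and pigment cell-like cells by −4.34 ± 2.18 (SD, n = 4), below the other cells in all of their libraries.

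Amacrine-like cells were the only neuron class of these with a mean above the other cells. Their share was 26.8, 33.2 and 32.8% in mCherry-enriched replicates 1 to 3 and 30.6 and 31.5% in eGFP-enriched replicates 1 and 3, a mean difference of 1.31 percentage points ± 1.20 (SD, n = 5), positive in 4 of 5 libraries and in 5 of 5 with matched depth (2.24 ± 1.02, SD, n = 5). Cartilage-like cells, with 5 or more cells in only 2 libraries, had 33.2 and 34.0%, and lens-like cells in 2 libraries 31.4 and 33.7%. With matched depth cartilage-like cells differed by 1.43 in eGFP-enriched replicate 3 and −0.370 in mCherry-enriched replicate 2. Lens-like cells then differed by 3.58 in eGFP-enriched replicate 1 and −3.49 in eGFP-enriched replicate 3. Mesenchyme-like cells in 3 libraries had 28.7 to 30.4% and leukocyte-like cells in 3 libraries 27.7 to 32.2%. In 1 library each, epidermis-like cells had 24.6% and iridophore-like cells 31.6%. Red blood cell-like cells, 10 in all and under 5 in each library, had 7.63, 6.89 and 6.65% in mCherry-enriched replicates 1 to 3. In eGFP-enriched replicates 1 and 3 they had 9.51 and 22.4%. The values of mCherry-enriched replicates 2 and 3 and of eGFP-enriched replicate 3 came from 1 cell each. Those of mCherry-enriched and eGFP-enriched replicate 1 came from 3 and 4 cells.

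**Figure D1:**
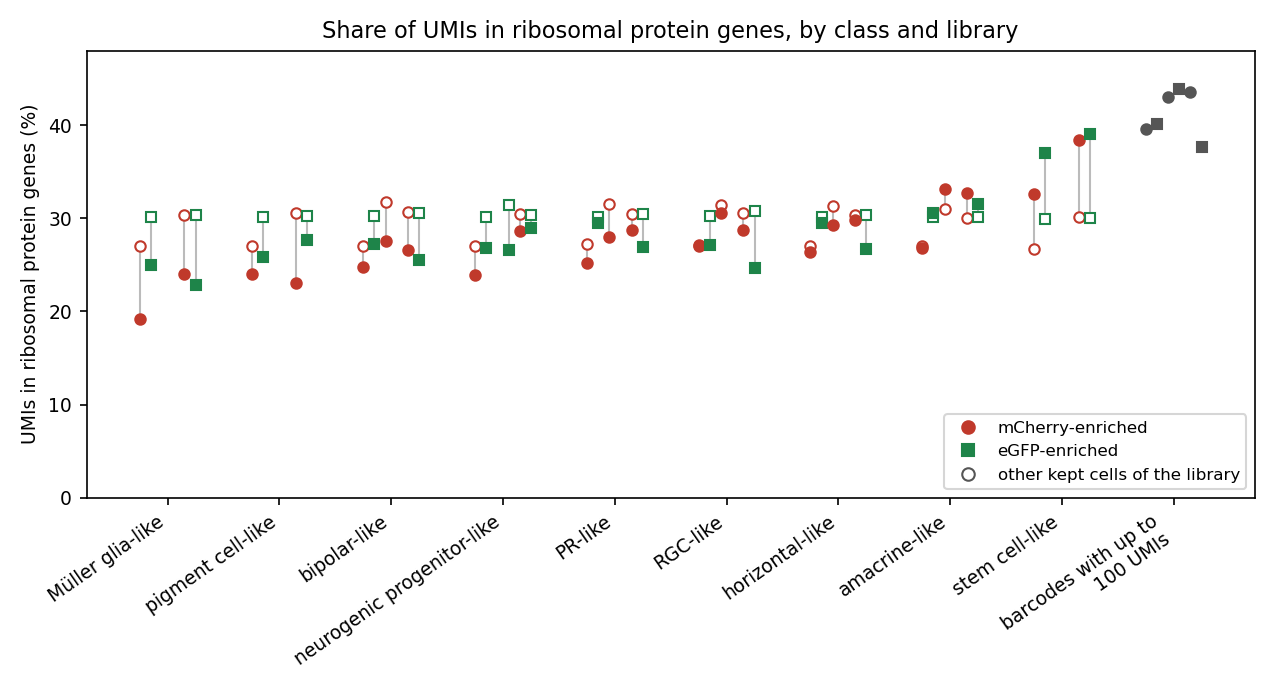
Share of UMIs in the 82 ribosomal protein genes (%) for each class, with 1 filled point per library (red circles mCherry-enriched, green squares eGFP-enriched) joined by a line to the other kept cells of that library (open points). Grey points are the barcodes with at most 100 UMIs. Stem cell-like cells stood above and Müller glia-like cells below their libraries in all 4 of theirs, and the barcodes with few UMIs lay above them all except stem cell-like cells of eGFP-enriched replicate 3.

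The single genes were compared by class next, with edgeR's quasi-likelihood test on UMIs summed per library over a class and over its other kept cells, with the library as a covariate and p-values adjusted over all genes tested. Fold changes here are of levels, scaled by TMM. Of the members in stem cell-like cells, 71 of 82 members were higher and 0 lower at an adjusted p under 0.05, where 17.2% of all 9842 genes tested were higher. The median log2 fold change of the members was 0.41, against −0.12 over all genes. For rplp1, the stalk protein with most UMIs of all members, the levels in stem cell-like cells were 10437, 12888, 11745 and 12915 CPM (UMIs of the gene scaled to the same total of UMIs in each sum) in mCherry-enriched replicate 1, eGFP-enriched replicate 1, mCherry-enriched replicate 3 and eGFP-enriched replicate 3, against 8582, 9645, 9407 and 9371 CPM in the other cells, with no overlap (log2 fold change 0.44 ± 0.10 SE, edgeR adjusted p = 0.0036). That call was lost without eGFP-enriched replicate 3, with DESeq2, with no filter on low counts and with cells of at least 500 genes, with adjusted p up to 0.46. For 57 members every stem cell-like value lay above every value of the other cells. The same count was not made over all genes tested, so it does not set the members apart. The 11 members that did not pass included rpsa, rplp2, rps21, rps26 and rps27.1. The number of members called rests on few libraries and on the genes in the fit. It was 9 without eGFP-enriched replicate 3, 35 without eGFP-enriched replicate 1, 3 with no filter on low counts and 2 with cells of at least 500 genes. The shares of all genes called in these alternatives are not given here, so such counts do not separate the members from the whole fit.

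In Müller glia-like cells 77 of 82 members were lower and 0 higher, where 15.1% of 9141 genes tested were lower. Their median log2 fold change was −0.76, against −0.21 over all genes. For rplp1 the levels were 5592, 7683, 7213 and 6499 CPM in mCherry-enriched replicate 1, eGFP-enriched replicate 1, mCherry-enriched replicate 3 and eGFP-enriched replicate 3, against 8680, 9751, 9486 and 9478 CPM, with no overlap (log2 fold change −0.86 ± 0.19 SE, edgeR adjusted p = 6.5e-05). Among the members past the threshold the fold changes reached −1.06, for rpl6 of the large subunit. The size of the shift depended on scaling, since without TMM the median over all genes was 0.05 and that of the members −0.38.

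In bipolar-like cells 74 of 82 members were lower and 0 higher, where 25.9% of 8161 genes tested were lower, and the median log2 fold change was −0.24, against −0.03 over all genes. The shift was small and shared. For rplp1 the levels were 8101, 8836 and 8810 CPM in mCherry-enriched replicates 1 to 3 and 8894 and 8108 CPM in eGFP-enriched replicates 1 and 3, each below its library's other cells, which had 8686, 10005, 9523, 9779 and 9520 CPM in the same order, though the ranges overlapped (log2 fold change −0.20 ± 0.04 SE, edgeR adjusted p = 0.0022). The 8 members that did not pass were rplp0, rplp2, rpsa, rps21, rpl5b, rpl26, rps19bp1 and rpl37_1. Without mCherry-enriched replicate 2 the count was 49.

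In the other classes fewer members were called. In RGC-like cells 18 of 82 were lower, where 23.4% of 9114 genes tested were lower, and the median was −0.20 against −0.07 over all genes. The log2 fold change was below 0 for 81 of the 82 there, and the count of members lower was 30 with DESeq2, 69 with no filter on low counts and 70 with cells thinned to 1500 UMIs. In PR-like cells 7 of 82 were lower, where 11.2% of 8805 were lower, with a median of −0.19 against −0.06 over all genes. In neurogenic progenitor-like cells 4 of 81 tested members were lower, namely rps27l, rpl7l1, rps27.2 and rpl22, where 20.3% of 6802 genes were lower, with a median of −0.16 against −0.14 over all genes. In pigment cell-like cells 24 of 82 were lower, or 29.3%, where 16.0% of 9517 were lower, with a median of −0.49 against −0.32. That count was 71 with a gate of 2 markers, 53 with one of 4 markers, 73 with cells of at least 500 genes and 75 with no filter on low counts. In horizontal-like cells 0 of 82 were lower and 0 higher by edgeR and by DESeq2, where 2.8% of 8177 genes were lower by edgeR, and 3 members had an unadjusted p under 0.05. In amacrine-like cells 11 of 82 were lower and 0 higher, where 19.2% of 8895 genes were lower, but the direction of the members as a group turned with the scaling. Their median was −0.06 with TMM and 0.07 with library totals, under which 15 members were higher and 2 lower, and it lay 0.00 to 0.02 above the median over all genes in each scaling. These counts moved with single libraries, and for the alternatives the share of all genes called is not given here. For RGC-like cells the count was 40 without mCherry-enriched replicate 1 and 4 without eGFP-enriched replicate 1 or mCherry-enriched replicate 2, 6 without mCherry-enriched replicate 3 and 11 without eGFP-enriched replicate 3. For PR-like cells it was 3 without mCherry-enriched replicate 2 and 2 without mCherry-enriched replicate 3 or eGFP-enriched replicate 3, and for amacrine-like cells 0 to 3 without any 1 library. For pigment cell-like cells it was 10 without either library of replicate 1, 46 without mCherry-enriched replicate 3 and 5 without eGFP-enriched replicate 3, and for horizontal-like cells 2 without mCherry-enriched replicate 1.

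**Figure D2:**
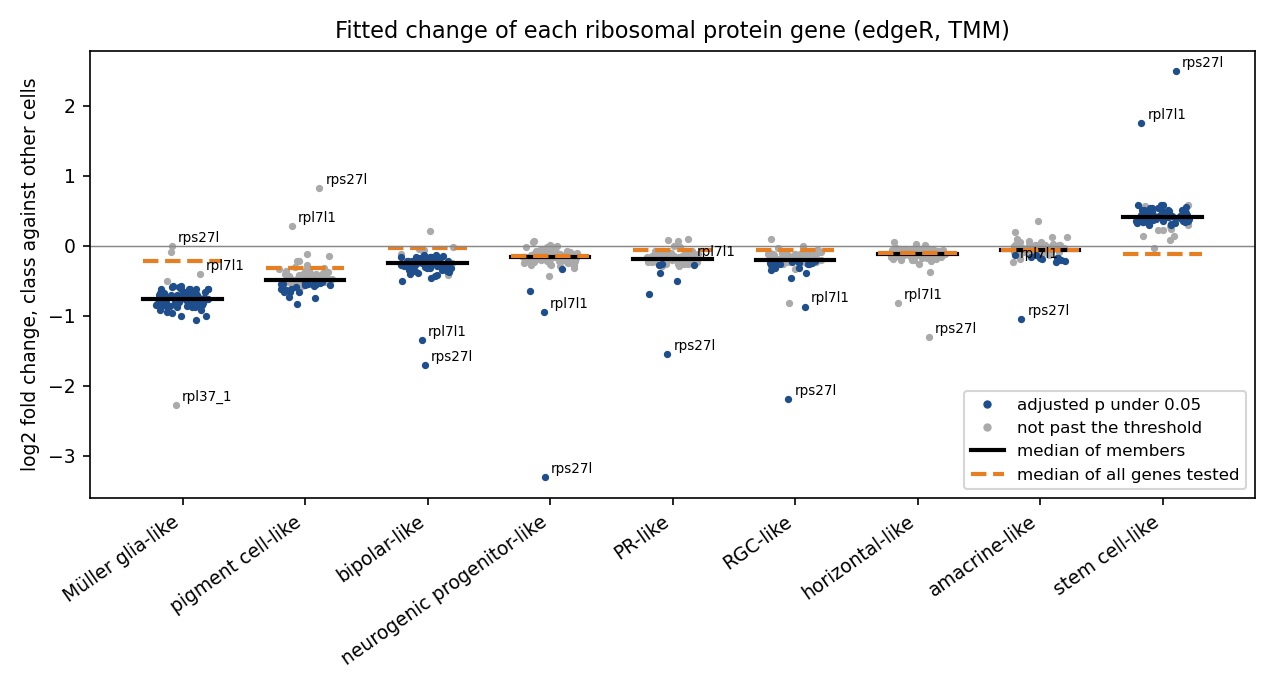
Log2 fold change of the level of each ribosomal protein gene, class against the other kept cells of the same libraries (edgeR, TMM), with 1 point per gene, blue where the adjusted p was under 0.05. Black lines are the medians of the members and orange dashed lines the medians of all genes tested, which were 0.41 and −0.12 in stem cell-like and −0.76 and −0.21 in Müller glia-like cells. Points lie in a narrow band except rps27l, rpl7l1 and, at few UMIs, rpl37_1.

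Other genes of protein synthesis were set beside the members, from lists chosen with earlier results of these data known. Ribosome biogenesis genes, whose products process ribosomal RNA and assemble the subunits in the nucleolus, had a larger median change than the members in several classes. In stem cell-like cells 30 of 32 tested were higher and 0 lower, where 17.2% of all genes were higher, with a median log2 fold change of 2.08, among them npm1a (nucleophosmin) at 2.85 and fbl (fibrillarin) at 2.24. The study itself names fbl for its stem cell cluster in these samples, so its rise is not independent evidence. In RGC-like cells 27 of 32 were lower (median −1.13), where 23.4% of all genes were, and in bipolar-like cells 28 of 32 (median −1.55), where 25.9% were. In neurogenic progenitor-like cells 24 of 31 were lower (median −1.12), where 20.3% of all genes were, and in Müller glia-like cells 13 of 32 (median −0.93), where 15.1% were. In pigment cell-like cells 3 of 32 were lower, where 16.0% of all genes were. The median of the biogenesis genes there was −0.30, against −0.49 for the members and −0.32 over all genes. The difference in size between biogenesis genes and members was not tested.

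Mitochondrial ribosomal protein genes, which build the separate ribosome of mitochondria, did not take the order of the cytosolic members in every class. In stem cell-like cells 58 of 74 were higher (median 0.89), where 17.2% of all genes were. Their median in Müller glia-like cells was −0.15, against −0.76 for the cytosolic members. In PR-like cells 3 of 74 were higher and 0 lower (median 0.14, against −0.19 for the cytosolic members), where 10.8% of all genes were higher, and in neurogenic progenitor-like cells 21 of 73 were lower (median −0.42), where 20.3% of all genes were. Of the translation genes, which include elongation and initiation factors, 15 of 22 were higher in stem cell-like cells (median 0.47), where 17.2% of all genes were, and 13 of 22 lower and 1 higher in Müller glia-like cells (median −0.66), where 15.1% of all genes were lower. The elongation factor eef1a1l1 had a log2 fold change of 0.35 in stem cell-like cells (edgeR adjusted p = 0.01) and of −0.67 in Müller glia-like cells (edgeR adjusted p = 0.0032).

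To see which members did not follow the others, the same test was run with the summed UMIs of the members as the library size, so that a fold change is relative to the ribosomal pool. This scaling sets the members near 0 as a group and moves all other genes by the pool's own change. Small values among the members are thus partly fixed by it, and the shares over all genes are no matched background. Of the 82 members, 49 were called in none of the 9 classes and 15 in only 1. For 76 the log2 fold change relative to the pool stayed under 0.5 in size in all 9 classes. These counts were not made over all genes. The members called in either direction were 12 in RGC-like, 14 in amacrine-like, 16 in bipolar-like, 9 in PR-like, 6 in neurogenic progenitor-like, 0 in horizontal-like, 1 in Müller glia-like, 12 in stem cell-like and 2 in pigment cell-like cells, where 41.7, 28.4, 48.2, 23.1, 30.8, 6.42, 27.3, 48.0 and 25.8% of all genes tested were called. In horizontal-like cells 5 members had an unadjusted p under 0.05, and DESeq2 also called 0.

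A member was taken to depart from the pool where its log2 fold change was also at least 1 in size. Only rps27l and rpl7l1 did so in any of the 9 classes. This made 1 departing member in RGC-like, 0 in amacrine-like, 2 in bipolar-like, 1 in PR-like, 1 in neurogenic progenitor-like, 0 in horizontal-like, 0 in Müller glia-like, 2 in stem cell-like and 1 in pigment cell-like cells, where 28.8, 17.4, 29.5, 14.8, 21.4, 4.81, 24.4, 34.7 and 23.9% of all genes departed. The shares over all genes have the same limit from the scaling.

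The gene rps27l encodes a variant of the small subunit protein S27, and its human counterpart is a known target of p53. It held 2224 UMIs, 0.554% of those of the 3 S27 genes, and it moved most of all members. In stem cell-like cells its level was 104, 106, 120 and 177 CPM in mCherry-enriched replicate 1, eGFP-enriched replicate 1, mCherry-enriched replicate 3 and eGFP-enriched replicate 3, from 43, 140, 12 and 65 UMIs. In the other cells of these libraries it was 15.5, 21.3, 23.8 and 38.5 CPM. The groups did not overlap, and relative to the pool the log2 fold change was 2.05 ± 0.19 (SE, n = 4 libraries, edgeR adjusted p = 2.06e-05).

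In neurogenic progenitor-like cells rps27l was nearly absent. It had 0 UMIs in mCherry-enriched replicate 1 and in eGFP-enriched replicates 1 and 2, 2 UMIs in mCherry-enriched replicate 3 and 7 in eGFP-enriched replicate 3, or 0, 0, 0, 7.3 and 4.5 CPM. The other cells of these libraries had 19.9, 24.1, 62.4, 27.8 and 44.0 CPM, all higher. The fold change relative to the pool was −3.29 on the log2 scale (± 0.44 SE, n = 5, edgeR adjusted p = 3.65e-05), a fitted value that rests on 9 UMIs in the class.

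The same gene was lower in neurons. In RGC-like cells it was at 7.2, 0 and 10.2 CPM in mCherry-enriched replicates 1 to 3 and at 10.6 and 2.3 CPM in eGFP-enriched replicates 1 and 3, against 22.004 to 44.5 CPM in the other cells (log2 fold change relative to the pool −2.001 ± 0.442 SE, n = 5, edgeR adjusted p = 0.0066). In bipolar-like cells the fold change was −1.46 ± 0.26 (edgeR adjusted p = 0.0013) and in PR-like cells −1.43 ± 0.30 (edgeR adjusted p = 0.0083). Amacrine-like cells just missed the limit on size, with −0.99 ± 0.27 (edgeR adjusted p = 0.028), and there the call was lost without eGFP-enriched replicate 1, mCherry-enriched replicate 2, mCherry-enriched replicate 3 or eGFP-enriched replicate 3 (edgeR adjusted p = 0.072, 0.057, 0.081 and 0.12). In horizontal-like cells the value was −1.25 ± 0.39 and did not pass the threshold (edgeR adjusted p = 0.074).

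Pigment cell-like cells held more rps27l than the rest. The levels were 56.2, 45.7, 40.6 and 85.6 CPM in mCherry-enriched replicate 1, eGFP-enriched replicate 1, mCherry-enriched replicate 3 and eGFP-enriched replicate 3, against 19.2, 23.7, 25.9 and 40.5 CPM, from 42 UMIs in all, and each was higher than in its library's other cells. The value relative to the pool was 1.28 ± 0.34 (SE, n = 4, edgeR adjusted p = 0.017), but as a level, without reference to the pool, 0.83 ± 0.35 did not pass (edgeR adjusted p = 0.088). The call was lost without mCherry-enriched replicate 1 or eGFP-enriched replicate 3. In Müller glia-like cells rps27l had 0, 7, 0 and 13 UMIs in the 4 libraries, too few to place it.

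The gene rpl7l1 departed in 2 classes, higher in stem cell-like and lower in bipolar-like cells. In stem cell-like cells its level was 183, 202, 180 and 193 CPM in mCherry-enriched replicate 1, eGFP-enriched replicate 1, mCherry-enriched replicate 3 and eGFP-enriched replicate 3, against 51.3, 66.2, 56.0 and 68.4 CPM, with no overlap (log2 fold change relative to the pool 1.32 ± 0.17 SE, n = 4, edgeR adjusted p = 0.00013). In bipolar-like cells it was 19.0, 24.1 and 14.3 CPM in mCherry-enriched replicates 1 to 3 and 44.4 and 24.9 CPM in eGFP-enriched replicates 1 and 3, against 58.6 to 73.6 CPM (−1.12 ± 0.23, n = 5, edgeR adjusted p = 0.0025). It was also called in RGC-like cells at −0.68 ± 0.18 (edgeR adjusted p = 0.015) and in neurogenic progenitor-like cells at −0.89 ± 0.25 (edgeR adjusted p = 0.013), both short of the limit on size. With cells thinned to 1500 UMIs the first was 0.06 (edgeR adjusted p = 0.93), and the second call was lost then (edgeR adjusted p = 0.064) and without mCherry-enriched replicate 3 or eGFP-enriched replicate 3 (edgeR adjusted p = 0.056 and 0.083). In PR-like cells it was at −0.06 ± 0.17 (edgeR adjusted p = 0.86). The parent gene rpl7, of which rpl7l1 held 1.87% of the UMIs of both, was called lower at −0.18 in bipolar-like and −0.20 in RGC-like cells by edgeR but not by DESeq2. Its calls in stem cell-like (0.13) and amacrine-like cells (−0.11) were lost in 8 of 10 and 7 of 13 alternatives.

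**Figure D3:**
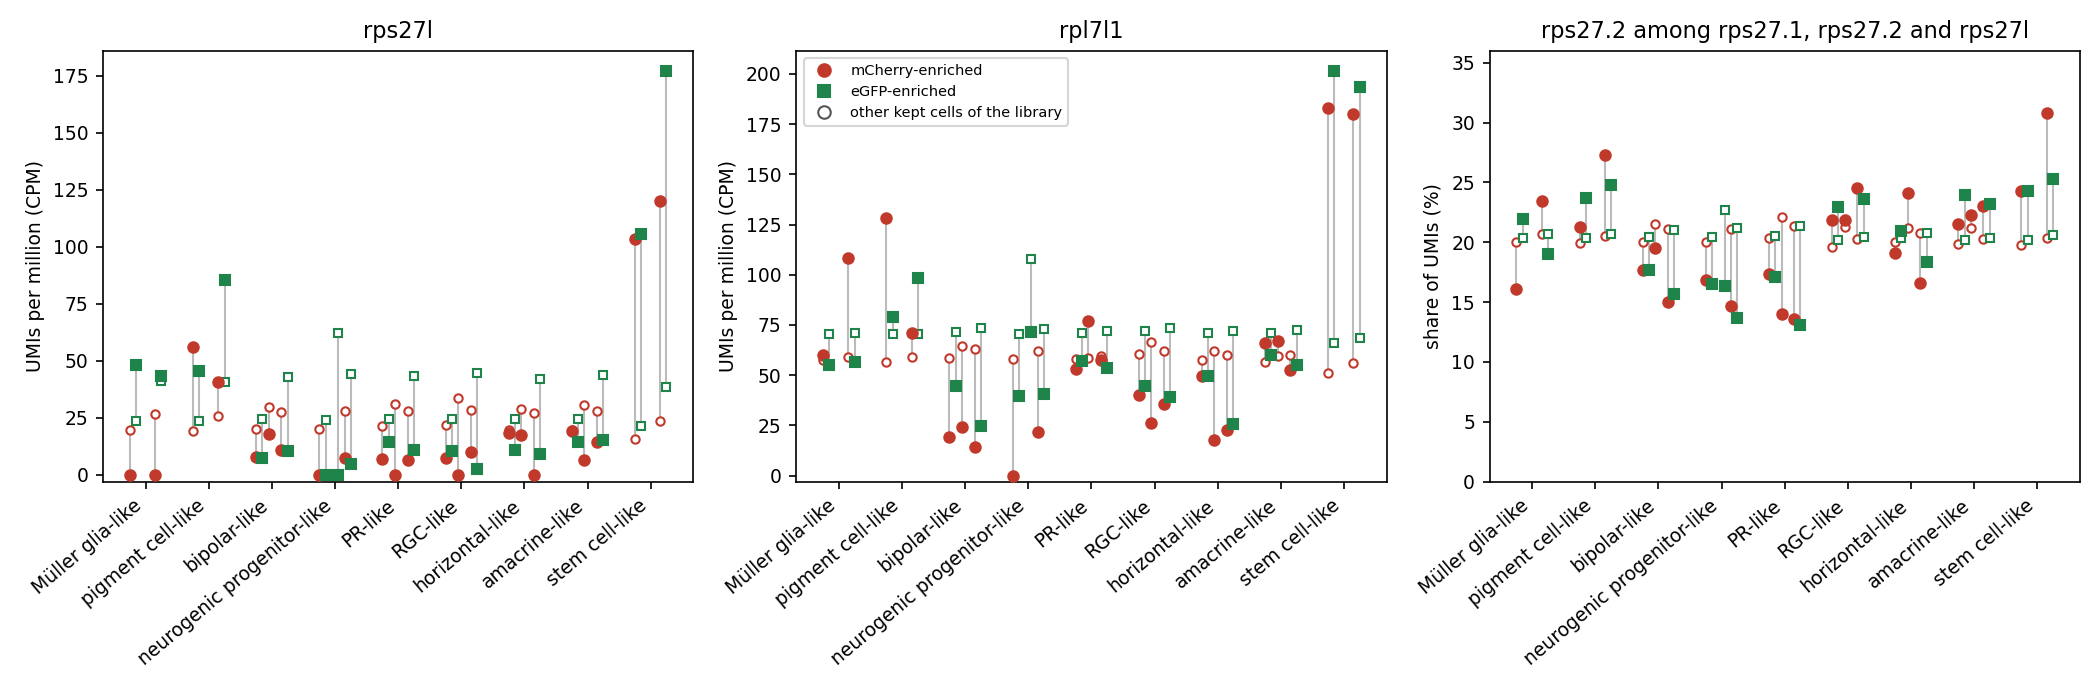
Levels of rps27l and rpl7l1 (CPM) and the share of rps27.2 among the UMIs of the 3 S27 genes (%), by class, with filled points for the class in each library and open points for that library's other kept cells. In stem cell-like cells rps27l lay at 104 to 177 CPM and rpl7l1 at 180 to 202 CPM, above all the other cells. The share of rps27.2 was smaller in bipolar-like, neurogenic progenitor-like and PR-like cells. It was larger in stem cell-like, amacrine-like, RGC-like and pigment cell-like cells.

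The S27 protein is encoded by 2 further genes with many more UMIs, rps27.1 with 79.0% of the UMIs of the 3 and rps27.2 with 20.5%, and their balance differed by class. In PR-like cells rps27.2 took 17.4, 14.01 and 13.6% in mCherry-enriched replicates 1 to 3 and 17.1 and 13.1% in eGFP-enriched replicates 1 and 3, against 20.3 to 22.1% in the other cells, with no overlap. There rps27.2 was lower relative to the pool (−0.33 ± 0.08, n = 5, edgeR adjusted p = 0.013) and rps27.1 higher (0.28 ± 0.05, edgeR adjusted p = 0.0043). In neurogenic progenitor-like cells the share of rps27.2 was 15.6% ± 1.38 against 21.1% ± 1.04 (SD, n = 5), and rps27.2 fell by 0.51 relative to the pool on the log2 scale (edgeR adjusted p = 0.001), while rps27.1 was at 0.04 and was not called. In bipolar-like cells rps27.2 was lower too (−0.27 ± 0.08, edgeR adjusted p = 0.014). The rps27.2 calls in PR-like and bipolar-like cells were lost without mCherry-enriched replicate 3, that in PR-like cells also without eGFP-enriched replicate 3, and those in bipolar-like and neurogenic progenitor-like cells with cells thinned to 1500 UMIs, with adjusted p up to 0.058, 0.31 and 0.26 in PR-like, bipolar-like and neurogenic progenitor-like cells.

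The balance tilted the other way in a second set of classes. In amacrine-like cells rps27.2 took 22.8% ± 0.91 against 20.4% ± 0.517 (SD, n = 5) and was higher relative to the pool by 0.27 ± 0.05 (edgeR adjusted p = 0.0092). In RGC-like cells it took 23.0% ± 1.15 against 20.4% ± 0.579 (0.29 ± 0.07, edgeR adjusted p = 0.012), a call lost without mCherry-enriched replicate 3 (edgeR adjusted p = 0.052). In stem cell-like cells it took 24.3, 24.3, 30.8 and 25.3% in mCherry-enriched replicate 1, eGFP-enriched replicate 1, mCherry-enriched replicate 3 and eGFP-enriched replicate 3, against 19.8 to 20.6%, and there it was rps27.1 that passed the test, lower by 0.32 relative to the pool (log2 fold change −0.32 ± 0.06, edgeR adjusted p = 0.00082). In pigment cell-like cells rps27.2 took 24.2% ± 2.49 against 20.4% ± 0.302 (SD, n = 4), higher in 4 of 4 libraries. There it was not called relative to the pool (0.35 ± 0.13, edgeR adjusted p = 0.064). No class was compared directly with another.

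Other paralogues also differed in balance by class. The gene rps26l, which shares the S26 protein with rps26, took 64.1% ± 1.87 of their UMIs in stem cell-like cells against 57.5% ± 0.794 in the other cells (SD, n = 4), with rps26 lower relative to the pool (−0.26 ± 0.07, edgeR adjusted p = 0.0076, not called by DESeq2). The value of rps26l there was 0.14 ± 0.05 (edgeR adjusted p = 0.046), a call lost in 8 of 10 alternatives. For L5, which binds 5S ribosomal RNA, rpl5a was lower relative to the pool in RGC-like (−0.28 ± 0.07, edgeR adjusted p = 0.014) and bipolar-like cells (−0.23 ± 0.07, edgeR adjusted p = 0.021), and rpl5b higher in amacrine-like cells (0.19 ± 0.05, edgeR adjusted p = 0.021). These were lost in 3, 5 and 4 of 13 alternatives, each of them without mCherry-enriched replicate 3, that of rpl5a in bipolar-like cells also without mCherry-enriched replicate 2 or eGFP-enriched replicate 3, and that of rpl5b also without eGFP-enriched replicate 1 or 3, with adjusted p up to 0.092, 0.078 and 0.21. Of the L22 pair, rpl22l1 took 40.2% ± 1.26 in neurogenic progenitor-like cells against 35.0% ± 1.48 (SD, n = 5), in 5 of 5 libraries, with neither gene called relative to the pool. Of the entries with the symbol rpl37, rpl37_1 held 0.113% of the UMIs and was called in no class. Close copies can share reads, and how the counting divided them is not known for these pairs.

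**Figure D4:**
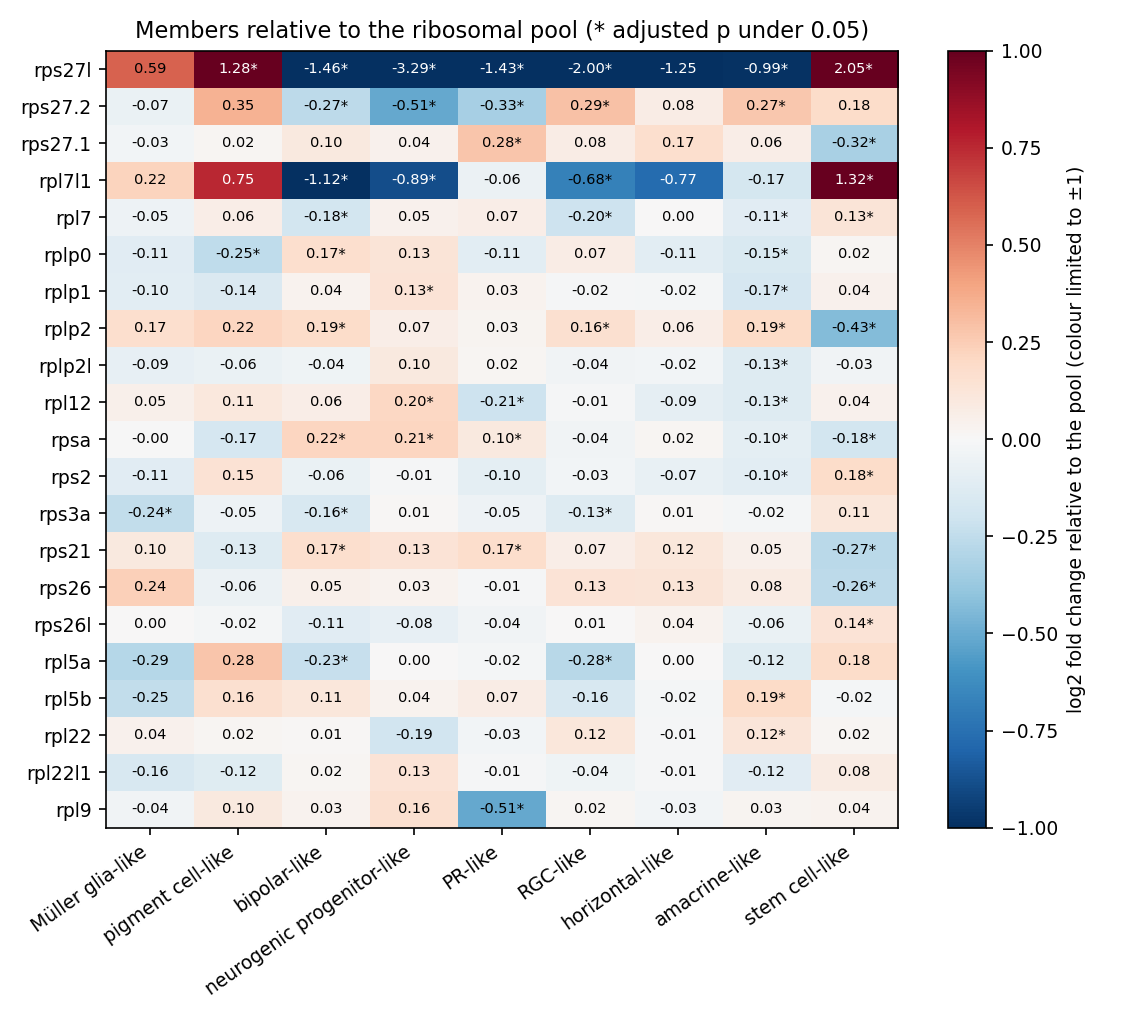
Log2 fold change relative to the ribosomal pool of 21 members (rows) in the 9 classes (columns, ordered by the mean difference in share), with colour limited to −1 to 1 and an asterisk where the edgeR adjusted p was under 0.05. The rows of rps27l and rpl7l1 hold all values of at least 1 in size that passed, and the values in the remaining rows reach −0.51.

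The stalk of the large subunit is formed by P0 (rplp0), P1 (rplp1) and P2 (rplp2 and rplp2l) on a base that includes L12 (rpl12). In amacrine-like cells rplp0 (−0.15), rplp1 (−0.17), rplp2l (−0.13) and rpl12 (−0.13) were each lower relative to the pool in 5 of 5 libraries, with edgeR adjusted p of 0.013, 0.0024, 0.0088 and 0.014, while rplp2 was higher (0.19, edgeR adjusted p = 0.025). Without mCherry-enriched replicate 3 the calls of rplp0, rpl12 and rplp2 were lost. These 5 genes together took 8.48% ± 0.202 of the members' UMIs in amacrine-like cells against 9.24% ± 0.0729 in the other cells (SD, n = 5). In neurogenic progenitor-like cells they took 9.99% ± 0.322 against 9.12% ± 0.109 (SD, n = 5), in 5 of 5 libraries, with rpl12 (0.20, edgeR adjusted p = 0.012) and rplp1 (0.13, edgeR adjusted p = 0.041) higher. The rplp1 call was lost in 6 of 13 alternatives, among them without eGFP-enriched replicate 1, mCherry-enriched replicate 3 or eGFP-enriched replicate 3 (adjusted p up to 0.49), and the rpl12 call in 3 of 13, with DESeq2 and without eGFP-enriched replicate 1 or 3 (adjusted p up to 0.060). In bipolar-like cells rplp0 was higher (0.17, edgeR adjusted p = 0.0058), though not by DESeq2. In pigment cell-like cells the 5 genes took 8.67% ± 0.221 against 9.19% ± 0.0756 (SD, n = 4), lower in 4 of 4 libraries. There rplp0 was called lower (−0.25, edgeR adjusted p = 0.038), and its value under the alternatives is not given here.

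In amacrine-like cells rplp2 thus moved against the rest of the stalk, while in bipolar-like cells rplp2 and rplp0 were both higher. Among the UMIs of rplp2 and rplp2l, rplp2 held 21.1% over all kept cells. It was higher relative to the pool in RGC-like (0.16), amacrine-like (0.19) and bipolar-like cells (0.19), with edgeR adjusted p of 0.049, 0.025 and 0.017. These calls were lost in 9, 5 and 4 of 13 alternatives, with adjusted p up to 0.27, 0.64 and 0.099, in all 3 classes without mCherry-enriched replicate 3 or eGFP-enriched replicate 3, in RGC-like and amacrine-like cells without eGFP-enriched replicate 1 and in RGC-like cells without mCherry-enriched replicate 2. It was lower in stem cell-like cells (−0.43 ± 0.08, edgeR adjusted p = 0.0011), where its share of the pair was 17.5% ± 1.63 against 21.8% ± 1.02 (SD, n = 4), and that call held in 10 of 10 alternatives.

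The small subunit as a whole kept its part of the pool. Its genes, without rps19bp1, took between 41.7 and 42.8% of the UMIs of both subunits on average in each of the 9 classes. The largest difference from the other cells was in PR-like cells, with 42.8% ± 0.379 against 41.9% ± 0.286 (SD, n = 5), higher in 5 of 5 libraries. Among small subunit members, rpsa, which encodes the laminin receptor protein SA, was called higher in bipolar-like (0.22) and neurogenic progenitor-like cells (0.21), each lost in 1 of 13 alternatives, with DESeq2 and with thinned cells. It was called lower in stem cell-like cells (−0.18), lost in 2 of 10, with DESeq2 and without eGFP-enriched replicate 3. Its calls in amacrine-like (−0.10) and PR-like cells (0.10) were lost in 4 and 12 of 13 alternatives, with adjusted p up to 0.14 and 0.35, in amacrine-like cells without eGFP-enriched replicate 1, mCherry-enriched replicate 3 or eGFP-enriched replicate 3 and in PR-like cells without any 1 library. The gene rps21 was lower in stem cell-like cells (−0.27) and higher in bipolar-like (0.17) and PR-like cells (0.17), the last 2 lost in 2 and 4 of 13 alternatives, in PR-like cells without mCherry-enriched replicate 2 or eGFP-enriched replicate 3. The gene rps3a was called lower in 3 classes, among them bipolar-like cells, there by edgeR but not by DESeq2. It was also the only member called relative to the pool in Müller glia-like cells, lower by 0.24 on the log2 scale. In the large subunit, rpl9 was called in PR-like cells alone, at 2233 CPM ± 632 against 3386 ± 644 (SD, n = 5), lower in 5 of 5 libraries (−0.51 ± 0.09 relative to the pool, edgeR adjusted p = 0.0043).

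One member differed between libraries far more than between cell classes. The gene rpl26, a large subunit protein next to the exit of the ribosome's tunnel, was at 481, 93.2 and 635 CPM in mCherry-enriched replicates 1 to 3 and at 260, 159 and 1379 CPM in eGFP-enriched replicates 1 to 3. As a share of the members' UMIs the highest library stood 15.3-fold above the lowest, eGFP-enriched replicate 3 over mCherry-enriched replicate 2. Over the 82 members the median of this fold was 1.098, and only rpl26 and rps27l (2.45) were over 2. Both libraries of replicate 2 were the lowest for rpl26 and both of replicate 3 the highest.

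The order of the libraries was nearly the same in each class. In bipolar-like cells rpl26 held 0.155, 0.0328 and 0.219% of the members' UMIs in mCherry-enriched replicates 1 to 3 and 0.0890, 0.0461 and 0.441% in eGFP-enriched replicates 1 to 3. In RGC-like cells the shares were 0.188, 0.0272, 0.205, 0.0825, 0.0465 and 0.435% in the same order. The free RNA of the 2 extreme libraries differed likewise, with 0.0266% in mCherry-enriched replicate 2 and 0.408% in eGFP-enriched replicate 3. In no class was rpl26 called relative to the pool.

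Within a library the cells differed little more than counting error. In cells with at least 5000 UMIs, the spread of rpl26 counts around the value expected from each cell's ribosomal UMIs was 1.04 times that of Poisson counting on average over the 6 libraries, the lowest of all 82 members, whose median was 1.46. In mCherry-enriched replicate 2, 45.8% of 118 cells had 0 rpl26 UMIs where 48.9% would from counting alone, and in eGFP-enriched replicate 3, 0.190% of 1577 cells where 0.0816% would. The spread in that library was 1.16 times that of Poisson counting, the highest of the 6. This measure grows with the number of UMIs of a gene, so it does not rank members with many UMIs against those with few. It was highest for rpl6 (4.48) and rpl31 (4.33), and for rpl6 it was 7.88 and 7.79 in the libraries of replicate 1 and 1.96 to 3.71 in the others. The gene rpl9 also differed by library, with 0.735% of the members' UMIs in mCherry-enriched replicate 2 and 1.09 to 1.28% in the other 5.

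**Figure D5:**
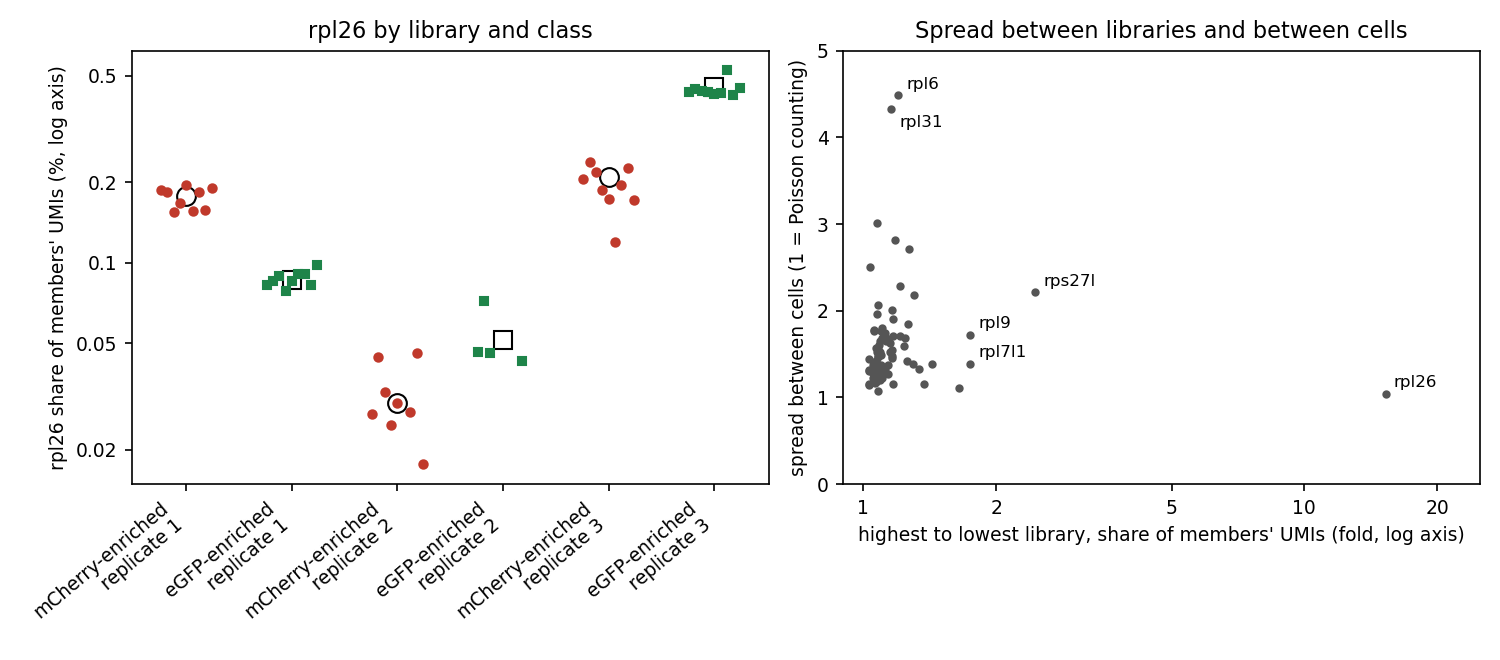
Left, share of rpl26 among the members' UMIs (%, log axis) in each library, with large open symbols for all kept cells and small filled ones for the classes with at least 5000 ribosomal UMIs in that library (PR-like cells of eGFP-enriched replicate 2 had 0 rpl26 UMIs and are not drawn). Right, for the 82 members, the fold between the highest and lowest library (log axis) against the spread between cells within libraries, where 1 is Poisson counting, with rpl26 at 15.3-fold and 1.04.

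To find the cells in which HS5 or NRE was active, the study read reporter counts by cluster and checked them by comparing the sorts in abundance. It also used topic modelling and immunofluorescence. By its account the mCherry-enriched samples also took cells positive for both reporters, and most cells had no reads of either reporter. It names lost reads and false-positive sorting as likely reasons. The sorts are thus enrichments that overlap in reporter activity. By edgeR 0 of 82 members passed an adjusted p of 0.05 as a level, where 0.0% of 12841 genes did, and 0 of 82 relative to the pool, where again 0.0% did. At an unadjusted p under 0.05 the count of members was also 0 in both, against 391 genes as levels, and DESeq2 called 0 members (10 genes of all were higher and 49 lower as levels). With the replicate number as a block, 0 members passed and 2 had an unadjusted p under 0.05, where 15 of all genes were higher and 100 lower. The median log2 fold change of the members, mCherry-enriched over eGFP-enriched, was −0.05, against 0.02 over all genes.

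The 5 members with the smallest p were rpl7l1, rps27l, rps7, rpl37_1 and rpl8. For rpl7l1 the levels were 57.4, 60.1 and 59.3 CPM in mCherry-enriched replicates 1 to 3 and 70.3, 103 and 70.6 CPM in eGFP-enriched replicates 1 to 3, with no overlap (log2 fold change −0.46 ± 0.21 SE, edgeR adjusted p = 1, exact two-sided permutation p = 0.1, the smallest that 3 against 3 can give). For rps27l the levels were 19.7, 28.4 and 26.3 CPM against 23.8, 55.1 and 41.0 CPM, and the sorts overlapped (−0.65 ± 0.35, edgeR adjusted p = 1). Between libraries of the same replicate number, rpl7l1 and rps27l were each lower in the mCherry-enriched one in 3 of 3 pairs, while the permutation values leave the pairing out. The genes rps7 (−0.16), rpl37_1 (0.38) and rpl8 (−0.12) had values that did not overlap between the sorts (exact two-sided permutation p = 0.1 for each). The same held for rpl17, which is not among these 5, with 3949, 4525 and 4460 CPM against 4654, 4533 and 4602 CPM. Where sorts do not differ, 3 against 3 gives such values at a rate of 0.1, so the lack of overlap sets no member apart. The permutation values were not adjusted over the 82 members, and they pass no threshold.

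The free RNA of the libraries had a different make-up from the cells. The genes rpl4 and rpl6 took less of the members' UMIs in barcodes with at most 100 UMIs than in kept cells, by 0.82 and 0.81 on the log2 scale on average and in 6 of 6 libraries. The gene rpl24 took more (0.32, in 6 of 6). The part of free RNA in the class differences was not tested.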

How the data were processed

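The files hold UMI counts without normalization, which the authors made by aligning to GRCz11 and both reporters. The submitters' processing notes name Cell Ranger 6.1.2 and Seurat 4, and the file headers name Cell Ranger 4. Free RNA was read from barcodes with at most 100 UMIs. A cell joined a class with at least 3 of its markers, 4 times the marker UMIs expected from free RNA (plus 0.5) and 2 times the next class, limits set with the data in view. Doublets were not removed, and the authors' cell annotation was not used here, so differences from the study may come from rebuilt names. The members and gene lists were chosen with earlier results of these data known. Tests used edgeR 4.0.16 in R 4.3.3 (TMM, filterByExpr, quasi-likelihood, Benjamini-Hochberg over all genes, threshold 0.05), with DESeq2 1.42.0 as an alternative. Only the edgeR fit of levels in RGC-like cells was tried on simulated counts, with the same dispersion for all genes and no library effect. The fits relative to the pool, the other classes, the sorts and DESeq2 were not. Depth-matched shares used bins of 0.5 in log2 UMIs with at least 5 other cells. They are means over cells, while the other class shares are of summed UMIs. Shares of UMIs and CPM are not scaled by gene length.

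Named are the 5 members with most UMIs (rplp1, rpl37_2, rps29, rpl39 and rplp2l), members departing by class, paralogues, the 5 smallest p between the sorts and those beside the limit of 100 UMIs. rpl26, rpl9, rpl6, rpl4, rpl24, rpl31, rpl17 and the stalk, rpsa, rps21 and rps3a were chosen after their values were seen. Libraries of the same replicate number deviated together from their group means (r = 0.518, 0.284 and 0.156 over 12841 genes), so the numbers were taken to pair the samples. The fits by class gave each library its own level and left this pairing out. For stem cell-like, Müller glia-like and pigment cell-like cells, n = 4 covers only replicate numbers 1 and 3, so their SD, SE and p-values do not rest on 4 independent samples. For the other tested classes, n = 5 covers both libraries of replicate numbers 1 and 3 and only 1 of replicate number 2. Their SD, SE and p-values do not rest on 5 independent samples either. Nothing says that samples of a group came from separate clutches, so p-values measure only the spread between these libraries.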

Additional observations from a re-analysis of the deposited data

Results flagged for a closer look

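Each class value over 4 or 5 libraries was examined for a library far from the rest, over 36 values, of which chance alone would mark about 1 in 20. Relative to the pool, rpl7l1 in RGC-like cells was at −1.19 in mCherry-enriched replicate 2, from 6 UMIs, and at −0.67 to −0.52 in the other 4 libraries. Relative to the pool, rps27l in pigment cell-like cells was at 1.82 in mCherry-enriched replicate 1, from 7 UMIs, and at 1.21 to 1.25 in the other 3. The paralogue rps8b, which has too few UMIs to be a member, was not at 0, with 44 UMIs in the kept cells.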

How the results depend on the processing

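Over 25 members named in the text, recomputed by class relative to the pool, and rplp1, rps27l and rpl7l1 also as levels, 2849 values kept direction and side of the threshold under the alternatives, 163 fell short of it, 54 newly passed and 1 turned, rpl7l1 relative to the pool in RGC-like cells (0.056 with cells thinned to 1500 UMIs). The values that kept their side include those that passed in neither fit. Only values past the threshold could fall short of it, so these totals do not give the rate at which calls were lost. rps27l could not be tested in thinned cells. Counts of members called are less stable than their direction, and depth limits the rare genes. The counts below stand without the share of all genes called under the same alternative, so they do not separate the members from the whole fit. With no filter on low counts, 69 members were lower in RGC-like, 3 in amacrine-like, 16 in neurogenic progenitor-like, 1 in horizontal-like and 75 in pigment cell-like cells, 3 were higher in stem cell-like cells, and 1 departed in horizontal-like cells. With DESeq2, 30 were lower in RGC-like, 16 in PR-like and 37 in pigment cell-like and 39 higher in stem cell-like cells. Without TMM, 2 were lower in amacrine-like, 26 in PR-like, 29 in neurogenic progenitor-like and 9 in pigment cell-like cells. With totals that leave out the members, the counts were 2 in amacrine-like and 50 in pigment cell-like cells. A gate of 2 markers gave 2 lower and 1 departing in amacrine-like and 71 lower in pigment cell-like cells, and one of 4 markers 1 departing in amacrine-like and 53 lower in pigment cell-like cells. Cells of at least 500 genes gave 6 lower in amacrine-like, 73 in pigment cell-like and 2 higher in stem cell-like cells, and at most 5% mitochondrial UMIs gave 12 in pigment cell-like cells.

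Cells thinned to 1500 UMIs gave 70 lower in RGC-like, 2 in amacrine-like, 49 in bipolar-like, 3 in PR-like, 0 in neurogenic progenitor-like, 45 in Müller glia-like and 2 in pigment cell-like cells, with 0 departing in RGC-like, bipolar-like, PR-like, neurogenic progenitor-like and pigment cell-like cells, and a share difference of −5.37 in Müller glia-like cells. Without the 5% deepest barcodes 3 were lower in amacrine-like and 2 in horizontal-like cells, and 1 departed in bipolar-like and 1 in horizontal-like cells. Matching on depth, added after seeing the data, gave share differences, as means over cells, of −1.31 in bipolar-like, −5.29 in Müller glia-like and 5.13 in stem cell-like cells. Without matching these means were −2.96, −5.52 and 6.21. Leaving out 1 library at a time, the members lower ranged from 4 to 40 in RGC-like, 0 to 3 in amacrine-like, 49 to 75 in bipolar-like, 2 to 10 in PR-like, 0 to 2 in horizontal-like and 5 to 46 in pigment cell-like cells, the members higher from 9 to 78 in stem cell-like cells, and those departing from 0 to 1 in amacrine-like, horizontal-like and pigment cell-like and 1 to 2 in bipolar-like cells. Thinning lowers depth by its construction, and for the other alternatives the cause was not tested. Some alternatives gave no value in a class left with under 4 libraries. In the paired analysis with a replicate block, 0 members differed between the sorts, and the block changed no call of a member.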
